A study of Mus musculus with 29 samples.

Results

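Acetylation of histone H3 at lysine 27 (H3K27ac) marks active promoters and enhancers. Of 112928 merged mouse H3K27ac regions, 3031 (2.68%) were called in both libraries of wild-type classical type 1 dendritic cells (cDC1) and in none of the 12 libraries of bone-marrow progenitors. They are called cDC1-only regions here. They were chosen by the region calls of all 14 libraries, so their presence in cDC1 and absence elsewhere is the selection rule and not a result. A region that was not called is below the caller's threshold in that library, and is not shown to lack the mark.

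All cells were primary cells of C57BL/6 mice, with 2 libraries per group. Wild-type cDC1 came from spleen and were sorted as XCR1+ CD172a- F4/80- cells with high CD11c and high MHC class II. The other 6 groups came from bone marrow: wild-type LSK cells (stem and early progenitor cells, Lin- Sca-1+ CD117+), wild-type LMPP (lymphoid-primed multipotent progenitors), LMPP of IRF8-deficient mice (IRF8KO), and LMPP, GMP (granulocyte-monocyte progenitors) and MDP (monocyte-dendritic cell progenitors) of mice lacking the +56 kb enhancer of Irf8 (d+56kb). Wild-type GMP and MDP were not analysed here. cDC1 are the only spleen cells among the H3K27ac groups, so cDC1 identity and spleen origin cannot be told apart. IRF8 and CEBPA were mapped by ChIP-seq in wild-type spleen cDC1, selected magnetically as Thy1.2- B220- CD49b- CD8a+ cells and so not the same sorted population, and in wild-type bone-marrow monocytes (CD117- CD135- Ly6G- CD115+).

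Sequencing depth ranged from 1.26 to 10.9 M tags over the H3K27ac libraries. The 2 cDC1 libraries had 5.42 and 10.9 M tags, with 52.3% and 16.4% of tags in called regions. The IRF8 libraries had 12.3 to 16.1 M tags. All 12 cDC1 marker genes, among them Xcr1, Clec9a, Cadm1 and Batf3, had a called region in both cDC1 libraries, covering 246 and 187 kb. In the 12 progenitor libraries 6 to 9 of these markers had a region, covering 7.50 to 32.0 kb. Of 6 B cell markers 3 and 2 had a region in cDC1 (at most 4.81 kb), and of 7 T and NK cell markers 2 and 3. Cd79a, Cd79b, Lck and Zap70 had none in either cDC1 library. Of 8 monocyte and macrophage markers 5 and 3 had one, and Ly6c2 and C1qa had none. The part of other cells in the results was not tested.

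cDC1 take up dead cells and present their antigens to CD8 T cells. Their development depends on the transcription factors IRF8, BATF3 and ID2. IRF8 binds DNA mostly with a partner: with PU.1 at ETS-IRF composite elements, with BATF3 and JUN proteins at AP-1-IRF elements, and with other IRF proteins at interferon-stimulated response elements. CEBPA drives granulocyte and monocyte development.

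The cDC1-only regions touched the 250 bases upstream of 116 RefSeq start sites (GRCm38.p6), belonging to 101 genes. An IRF8 peak of both cDC1 libraries lay in 19 of these windows (16.4%), against 2.61% of the 21263 upstream windows in the table and 5.23% of the 8543 windows touched by regions of both cDC1 libraries and at least 1 progenitor library. Of those 19, the 4 below held an ETS-IRF composite (GGAA, any 2 bases, then GAAA) or an interferon-stimulated response element (GAAA, any 2 bases, then GAAA), both searched on both strands. All 4 are shown because they touch a cDC1-only H3K27ac region and an IRF8 peak and hold the letters of an IRF8 site. They were not checked for a match inside the IRF8 peak itself. They run 5′ to 3′ towards the start site, on the gene's strand, and capitals mark the matches.
Cd8a (chr6:71373177-71373426, + strand): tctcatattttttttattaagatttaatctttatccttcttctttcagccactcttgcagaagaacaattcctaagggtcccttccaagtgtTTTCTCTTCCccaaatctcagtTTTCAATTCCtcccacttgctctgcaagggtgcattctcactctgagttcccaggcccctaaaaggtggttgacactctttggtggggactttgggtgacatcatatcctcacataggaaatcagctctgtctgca
Klrk1 (chr6:129623865-129624114, - strand): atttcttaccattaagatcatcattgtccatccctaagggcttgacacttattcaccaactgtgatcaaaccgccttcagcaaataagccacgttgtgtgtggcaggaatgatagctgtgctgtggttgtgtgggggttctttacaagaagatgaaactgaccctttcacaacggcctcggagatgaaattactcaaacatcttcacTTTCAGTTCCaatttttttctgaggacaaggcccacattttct
Gpr141b (chr13:19732952-19733201, - strand): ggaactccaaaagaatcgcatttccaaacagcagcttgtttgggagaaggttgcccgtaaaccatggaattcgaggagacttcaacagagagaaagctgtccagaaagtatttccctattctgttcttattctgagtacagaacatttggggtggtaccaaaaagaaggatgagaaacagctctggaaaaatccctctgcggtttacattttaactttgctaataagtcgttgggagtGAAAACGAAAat
Phf11a (chr14:59297523-59297772, - strand): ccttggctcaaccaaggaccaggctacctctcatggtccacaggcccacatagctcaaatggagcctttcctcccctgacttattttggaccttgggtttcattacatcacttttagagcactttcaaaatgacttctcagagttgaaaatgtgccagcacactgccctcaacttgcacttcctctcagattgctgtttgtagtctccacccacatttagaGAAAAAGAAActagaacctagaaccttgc

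The Cd8a window held 2 composite matches and Klrk1 held 1, all on the opposite strand to the gene. Cd8a encodes the CD8 alpha chain used to select the IRF8 cells, and Klrk1 encodes the receptor NKG2D. Gpr141b, an orphan receptor gene, and Phf11a, a PHD finger protein gene, each held 1 response-element match. Composite matches occurred in 4 of the 116 windows (3.45%), against 2.16% of all upstream windows. Response-element matches also occurred in 4 (3.45%, against 2.96%), and the AP-1 site TGANTCA occurred in 1 (0.862%, against 6.13%). With 4, 4 and 1 matches these shares rest on few windows, and a match is not a shown binding site. Of the 19 windows with an IRF8 peak, 2 (10.5%) held a composite, against 7.76% of all 554 upstream windows with such a peak. The response element was likewise found in 2 (10.5%), against 9.75%, so both shares were near those of bound windows in general. Among the other windows with an IRF8 peak were those of Cxcl9, a T cell chemoattractant, and Pdcd1lg2, which encodes the inhibitory ligand PD-L2.

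Most cDC1-only regions lay away from start sites. Of the 2924 on chromosomes with annotated start sites, 124 (4.24%; 95% Wilson interval 3.57 to 5.03%) lay within 1000 bases of one, where the share over all merged regions was 8.92%. Of the 13712 regions called in both cDC1 libraries and in at least 1 progenitor library, termed shared regions below, 48.7% did. The start-site table covers 17492 of 21900 protein-coding genes and none on chromosome 18, so these shares are lower limits. Counting either end of any gene span instead gave 8.84% of cDC1-only and 55.3% of shared regions. The midpoints of cDC1-only regions lay a median of 30.4 kb from the nearest start site, against 4.12 kb for shared regions. The midpoint fell within a gene span in 60.1% of them, where the share was 55.4% over all merged regions and 71.9% over shared regions. For 183 (6.04%) no gene lay within 100 kb, against 14.7% of all merged and 2.01% of shared regions. Intervals here cover counting error only, and neighbouring regions are not independent.

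Of the regions, 45.1% were between 1 and 2 kb wide. The median width was 1622 bases, with quartiles of 1124.5 and 2377.5 and a maximum of 27188. Shared regions had a median of 2648.5 bases. Within the same regions, cDC1 library 1 called a median of 1561 bases and library 2 a median of 846. Library 1 had the wider call in 2573 regions and library 2 in 300. Of the library 1 calls 6.66% were at the caller's minimum width, and of the library 2 calls 29.8%. Despite this difference, the regions took 11.8% and 11.5% of all bases called in the 2 libraries. The nearest region of another cell type was a median of 4.32 kb away, and 14.7% had one within 1 kb.

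The rule's edges were as follows. A further 933 regions were called in both cDC1 libraries and in exactly 1 other library, with a median width of 1957 bases. A further 10405 were called in only 1 cDC1 library and nowhere else, and their median width was the caller's minimum. The same rule with LSK in place of cDC1 gave 767 regions, with a median width of 898 bases.

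IRF8 occupied most of the cDC1-only regions in cDC1. An IRF8 peak was present in 65.2% by the first IRF8 library and 64.3% by the second, and a peak of both libraries lay in 1731 regions (57.1%; 55.3 to 58.9%). The share over all merged regions was 9.81%. Shared regions held such a peak in 36.9% of cases (44.0% in each IRF8 library), and LSK-only regions in 5.74%. The gap between cDC1-only and shared regions was 21.2 points in one IRF8 library and 20.3 in the other, larger than the spread between the libraries. No IRF8 peak of either library was found in 870 regions (28.7%), and 187 (6.17%) held at least 2 peaks of both, against 7.58% of shared regions.

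This gap depended on requiring both cDC1 H3K27ac libraries. With library 2 alone as the cDC1 calls, 9013 regions met the rule, 20.6% held an IRF8 peak, and they fell 14.2 points below shared regions. With library 1 alone, 8264 regions met it, 35.0% held a peak, and the gap was 0.79 points. Of the 10405 regions called in 1 cDC1 library and nowhere else, 12.2% held a peak. Among regions between 1 and 2 kb wide, a comparison chosen after seeing the data, the gap was 33.6 points with both libraries, 36.4 with library 2 alone and 26.2 with library 1 alone. At that width and away from start sites, also chosen after seeing the data, these gaps were 19.8, 22.9 and 15.7 points.

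In monocytes, the same factor was found in few of these regions. An IRF8 peak of both monocyte libraries lay in 167 cDC1-only regions (5.51%; 4.75 to 6.38%), with 6.57% and 7.75% by single library. The share over all merged regions was 2.55%, and that of shared regions was 11.1%. Merged regions are mostly narrow, with 57.0% at the caller's minimum width, and shares at equal width are given below. With cDC1 H3K27ac library 2 alone the share of cDC1-only regions was 1.84%, below that of all merged regions, and with library 1 alone 3.46%. Of the 167 regions, 163 (97.6%) were also bound in cDC1, and 4 were bound in monocytes alone. This overlap was similar in shared regions, where 95.3% of those bound in monocytes were also bound in cDC1. The monocyte libraries held fewer peaks, with 4202 found in both against 19296 in cDC1, at similar depth. Enrichment differed, with 2.19% and 2.21% of tags in peaks for IRF8 in monocytes and 5.42% and 6.0% in cDC1. Its part in the lower monocyte shares was not tested. As a share of the peaks themselves, 10.0% of the cDC1 IRF8 peaks lay in cDC1-only regions (8.99% and 8.76% by library), against 4.00% of the monocyte IRF8 peaks (3.91% and 3.75%). The 2 ranges did not overlap, but 2 libraries against 2 allow no two-sided exact permutation p below 0.333.

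The cDC1 IRF8 peaks divided further by what monocytes showed. Of 14207 cDC1 peaks that met no monocyte peak, 11.9% lay in cDC1-only regions and 29.1% in shared regions. Of 5089 that met one, 4.79% lay in cDC1-only and 43.1% in shared regions. The 2 classes of IRF8 peak thus had opposite orders in the 2 kinds of region, and this difference was not tested.

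CEBPA in monocytes gave the widest contrast. Its peaks lay in 163 cDC1-only regions (5.38%; 4.63 to 6.24%), with 7.39% and 6.33% by single library, below the 9.23% of all merged regions. With cDC1 H3K27ac library 2 or 1 alone the share was 2.12% or 3.71%. Of shared regions 30.7% held one, and of regions called in all 14 libraries 35.7%. Only 1.09% of the monocyte CEBPA peaks lay in cDC1-only regions. In cDC1 themselves CEBPA had 166 and 72 peaks in all, and none lay in a cDC1-only region. Over all merged regions the shares with such a peak were 0.0044% and 0.024%. With so few peaks, finding none does not set the cDC1-only regions apart. All 3 binding patterns together left 1492 regions (49.2%) with IRF8 in cDC1 alone, 33 (1.09%) with all 3, and 1243 (41.0%) with none. None of the 3 was found in 47.9% of shared regions.

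**Figure D1:**
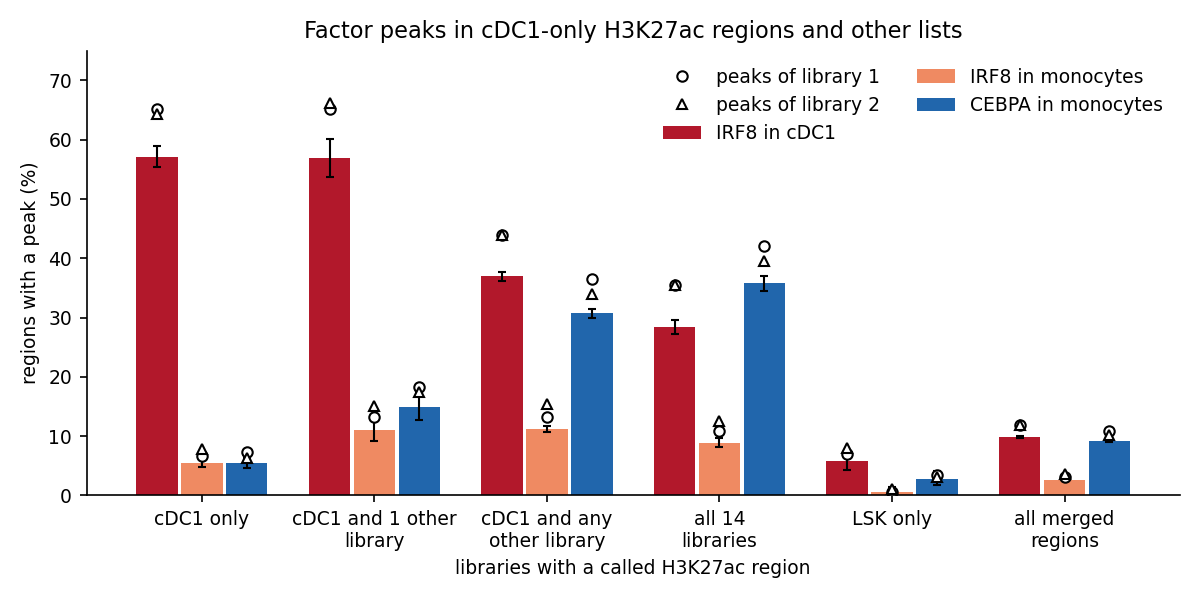
Share of regions (%) with a factor peak, by the libraries in which the H3K27ac region was called; bars are peaks found in both libraries of a factor with 95% Wilson intervals, circles and triangles are peaks of the single libraries. In cDC1-only regions IRF8 in cDC1 reaches 57.1% and both monocyte factors stay under 8%; CEBPA in monocytes reaches 30.7% in regions shared with any progenitor library.

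The share with a peak was higher in wider regions, so the comparison was repeated within width classes. Above the minimum width and up to 1 kb, 34.2% of cDC1-only regions held an IRF8 peak in cDC1, against 20.1% of shared regions. Between 1 and 2 kb the shares were 54.8% and 21.3%, between 2 and 4 kb 70.5% and 33.6%, and above 4 kb 84.7% and 61.0%. CEBPA in monocytes ran the other way in every class, with 4.32% against 14.5% between 1 and 2 kb and 8.67% against 52.8% above 4 kb. IRF8 in monocytes was found in 4.69% against 5.65% between 1 and 2 kb, where the intervals overlapped. For wider regions its intervals were apart, with 6.60% (5.13 to 8.46%) against 9.43% (8.73 to 10.2%) between 2 and 4 kb and 12.8% (8.79 to 18.2%) against 20.5% (19.2 to 21.9%) above 4 kb. All merged regions between 1 and 2 kb held IRF8 in cDC1 in 17.5% of cases and CEBPA in monocytes in 15.9%. For IRF8 in monocytes the cDC1-only and all-merged shares were 3.47% and 1.90% above the minimum width and up to 1 kb. Between 1 and 2 kb they were 4.69% and 4.21%, between 2 and 4 kb 6.60% and 7.31%, and above 4 kb 12.8% and 16.5%.

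Start sites also divided the 2 kinds of region, since 48.7% of shared and 4.24% of cDC1-only regions lay near one. Away from start sites, 57.9% of cDC1-only and 50.9% of shared regions held IRF8 in cDC1, a gap of 7.0 points. IRF8 in monocytes was then 5.61% and 15.8%, and CEBPA in monocytes 5.25% and 33.6%. Among these distal regions the gap of IRF8 in cDC1 was smaller than over all regions, and both monocyte gaps were larger. Within width classes of distal regions, IRF8 in cDC1 was 55.5% against 35.7% between 1 and 2 kb, 71.7% (68.5 to 74.7%) against a share with an interval of 48.2 to 51.8% between 2 and 4 kb, and 86.7% against 69.6% above 4 kb. Up to 1 kb it was 34.8% (30.9 to 38.8%) against 27.1% (21.1 to 34.0%), and these intervals overlapped. Distal regions between 1 and 2 kb held IRF8 in monocytes in 4.71% against 9.64% of cases. CEBPA in monocytes was 4.48% against 17.5% at that width, and 8.67% against 53.0% above 4 kb.

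**Figure D2:**
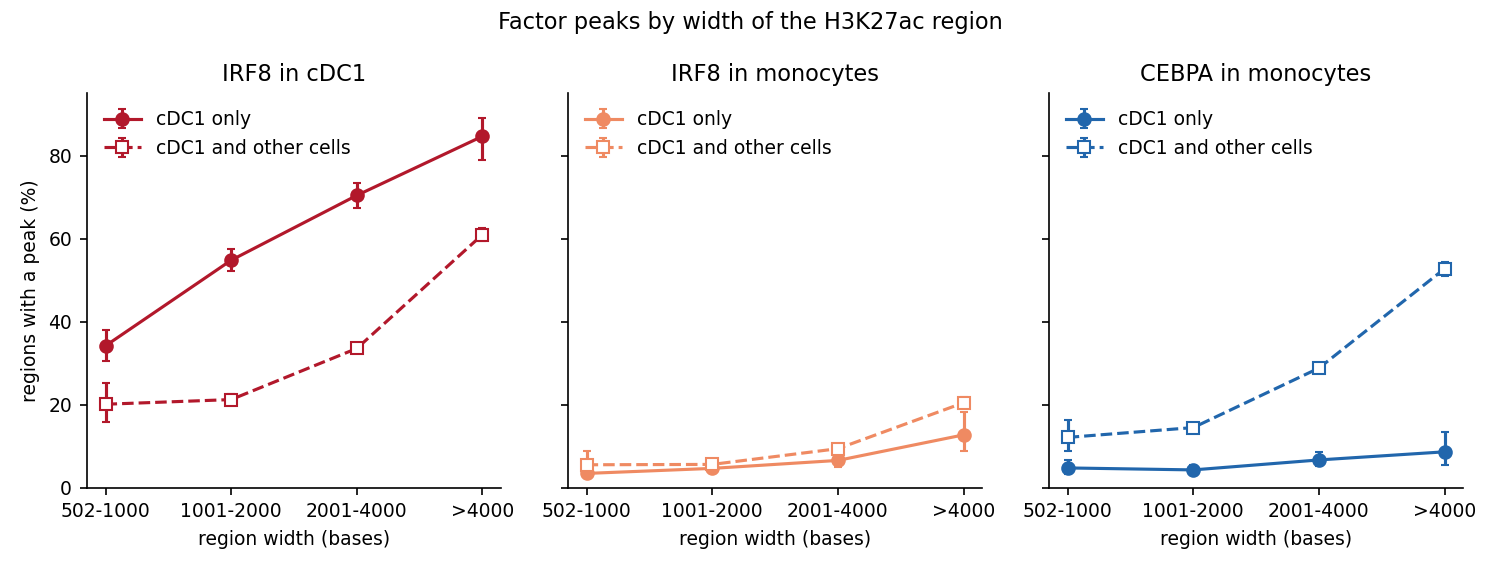
Share of regions (%) with a peak of both libraries of each factor, by width of the merged H3K27ac region in bases, for cDC1-only (filled circles) and shared regions (open squares); bars are 95% Wilson intervals. For IRF8 in cDC1 the cDC1-only regions lie above the shared ones in all 4 classes, for CEBPA in monocytes below them in all 4.

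The IRF8 peaks of cDC1-only regions lay nearer the region's midpoint in relative terms as well as in bases. Of these peaks 73.1% lay nearer to the midpoint than to either edge of the region, against 65.8% in shared regions. Their median distance to the midpoint was 279 bases against 683, and 39.0% against 19.3% lay within 200 bases of it, but distances in bases follow the width of the region, which was larger for shared regions. Members with an IRF8 peak were wider than those without, with medians of 1854 and 1345 bases. A start site lay within 1000 bases of 2.99% of the bound members and of 5.90% of the unbound.

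Both monocyte values were higher in cDC1 regions that were also called in a few progenitor libraries, while that of IRF8 in cDC1 was about the same. Regions of both cDC1 libraries and 1, 2, 3 or 4 other libraries held IRF8 in cDC1 in 56.9%, 56.5%, 55.8% and 56.4% of cases, close to the 57.1% of the cDC1-only regions. The share fell to 28.4% for regions of all 12 other libraries. CEBPA in monocytes went from 5.38% to 14.9%, 21.7%, 25.9% and 38.5% over 0 to 4 other libraries. It was then 33.6%, 28.9%, 31.5% and 26.0% at 5 to 8, and 35.7% at 12. IRF8 in monocytes went from 5.51% to 11.0% and 17.1% over 0 to 2, and was 8.83% at 12. Median width also grew, from 1622 to 2362.5 bases at 4 other libraries, and its part in the rise was not tested.

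**Figure D3:**
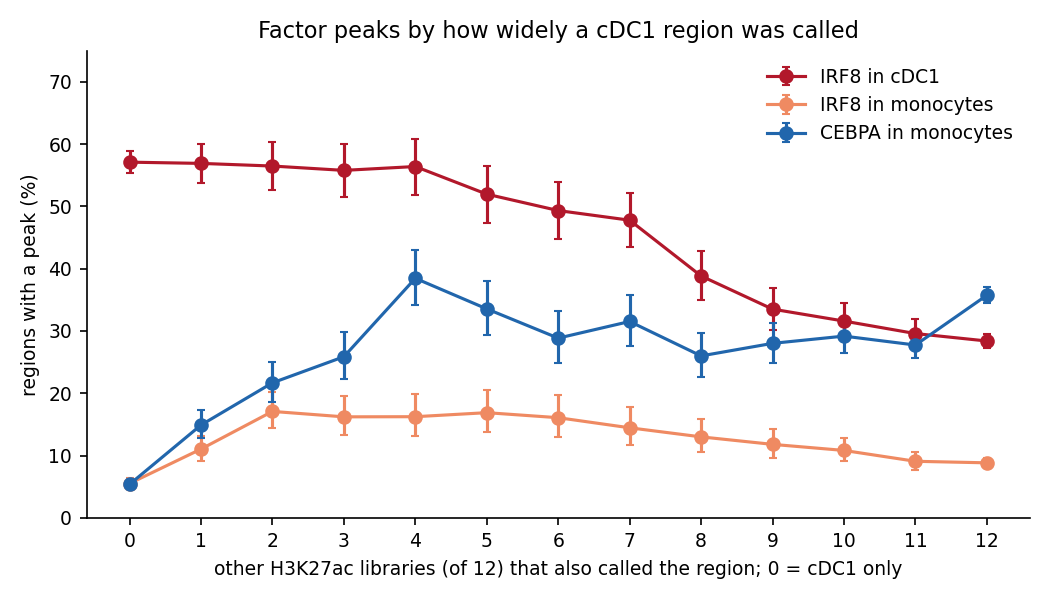
Share of cDC1 regions (%) with a peak of both libraries of each factor, by the number of other H3K27ac libraries that also called the region; 0 marks the cDC1-only regions and bars are 95% Wilson intervals. IRF8 in cDC1 is level from 0 to 4 libraries and declines to 28.4% at 12, while CEBPA in monocytes climbs from 5.38% to 38.5% between 0 and 4, lies at 26.0% at 8 and at 35.7% at 12.

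The monocyte values differed by the progenitor that shared the region. Regions of cDC1 and LSK alone (276) held CEBPA in monocytes in 5.07% of cases. Those shared with LMPP alone held it in 4.26% for wild-type LMPP (94 regions), 5.31% for d+56kb LMPP (113) and 10.6% (6.01 to 18.0%) for IRF8KO LMPP (104). Regions of cDC1 and d+56kb GMP alone (165) held it in 17.6%, and those of cDC1 and d+56kb MDP alone (451) in 35.0% (30.8 to 39.5%). The first values, with LSK and with wild-type and d+56kb LMPP, were near that of the cDC1-only regions.

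IRF8 in monocytes was 27.9% in the cDC1 and MDP regions. With LMPP it was 5.32% for wild-type, 3.54% for d+56kb and 11.5% (6.72 to 19.1%) for IRF8KO mice, and with LSK and GMP it was 5.07% and 4.85%. The median width was 2046 bases with MDP and 1844.5 with LSK. LMPP came from all 3 genotypes, but GMP and MDP only from d+56kb mice. Cell stage and genotype therefore cannot be told apart where GMP or MDP are set against wild-type LSK or LMPP. LMPP, GMP and MDP of d+56kb mice share a genotype, and the differences among them were not tested.

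At least 1 cDC1-only region was assigned to 1991 of 21900 protein-coding genes (9.09%), by the gene span that holds it or the nearest one within 100 kb. Of these genes 555 had at least 2 and 31 had at least 5. Their spans were long, with a median of 54.2 kb against 17.1 kb for all genes and 184.6 kb for those with at least 5, so a count per gene partly follows its length. For 478 genes (24.0% of the 1991) no shared region was assigned, and for 69 no region of any progenitor.

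Cadm1, which encodes the adhesion molecule CADM1 (NECL2) displayed by cDC1, had the most, 11 regions across its 332 kb span (chr9:47530170-47862280). The calls covered 53.2 kb in cDC1 library 1 and 40.2 kb in library 2. IRF8 peaks of both cDC1 libraries lay in 5 of the 11, among them the widest at chr9:47637797-47658278 (20.5 kb, 2 peaks) and the next widest, of 9.17 kb, at chr9:47620527-47629692 (2 peaks). The region at chr9:47529360-47533404, over one end of the gene, held no IRF8 peak. One region, at chr9:47772089-47773206, held an IRF8 peak in monocytes as well, and none held CEBPA. Over the whole span the cDC1 libraries had 21 and 19 called regions and the progenitor libraries 0 to 3, covering at most 3.37 kb.

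**Figure D4:**
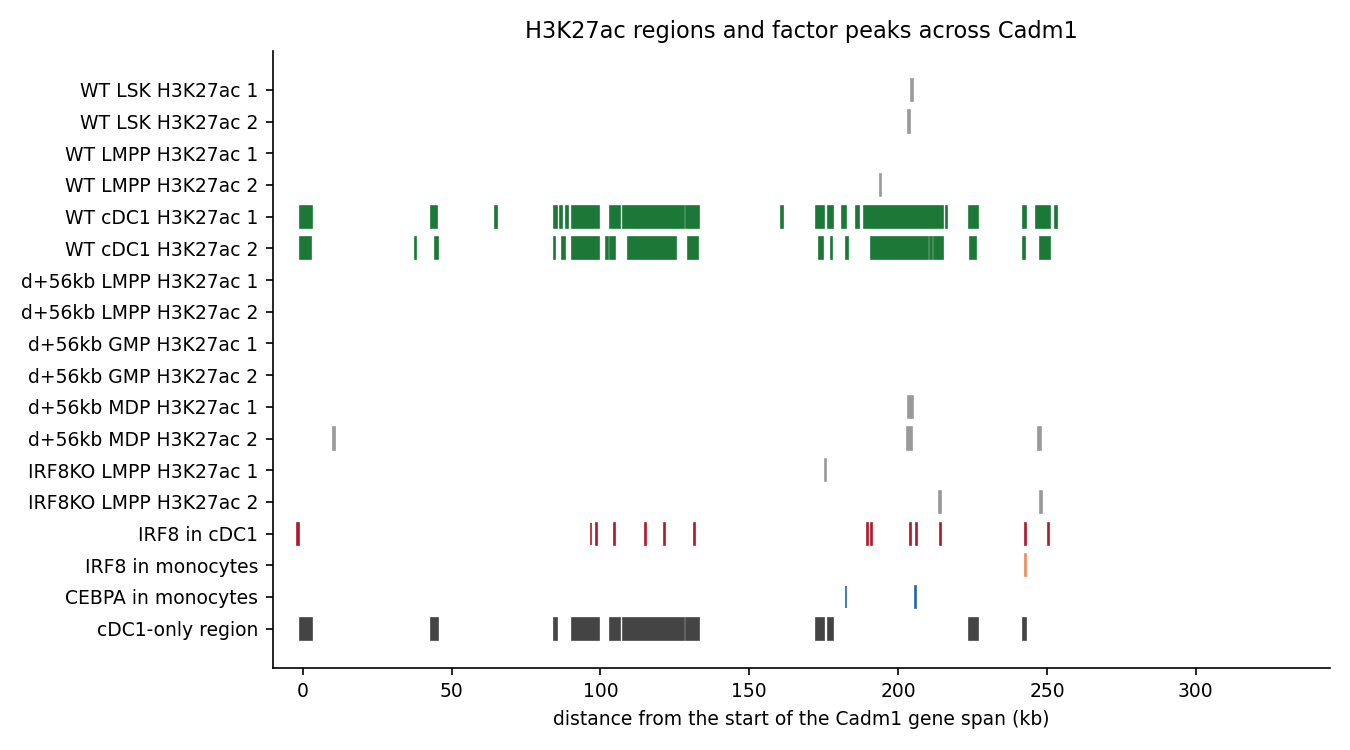
Called H3K27ac regions of the 14 libraries (cDC1 in green, progenitors in grey), factor peaks of both libraries and cDC1-only regions (dark grey) along Cadm1, in kb from the start of its span. cDC1 regions form broad blocks with 5 IRF8-bound cDC1-only regions, while the progenitor rows hold 0 to 3 calls each.

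Ahcyl2, an IP3 receptor-binding protein gene, followed with 8 regions, 7 of them with IRF8. The bases called there were 22.1 kb in library 1 and 12.1 kb in library 2. Tbc1d9, of a Rab GTPase-activating family, also had 8, with IRF8 in 2. St6gal1 (a sialyltransferase), Rad51b (DNA repair) and Rbpj (the transcription factor of Notch signalling) had 7 each, with IRF8 in 4, 2 and 2. Cdk14, Fmnl2, Phlpp1, Plcb4, Baz2b, Rbm47 and Macc1 had 6 each. Macc1 and Plcb4 held IRF8 in 5 of their 6, Baz2b in 1. Zfp800, outside the leading 20, held IRF8 in all 5 of its regions. Rad51b and Baz2b also had 45 and 35 regions of progenitor cells, where Ahcyl2 and Macc1 had 5 each. Assigning each region to the nearest listed start site instead kept 9 of the leading 20, and Cadm1 lost all because it is not in that table. Rad51b, Phlpp1, Plcb4, Baz2b and Ano6 are in that table and also lost all, so their counts depend on the assignment rule.

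The widest region of all lay in Zfp366, the gene of the dendritic-cell zinc finger protein DC-SCRIPT, at chr13:99200528-99227715. It spanned 27.2 kb, called as 26.9 kb in library 1 and 23.8 kb in library 2, and held 3 IRF8 peaks. A 17.1 kb region next to Ptcd2 lay downstream of it on the same chromosome (chr13:99301620-99318675) and held 3 more. P3h2, a collagen prolyl hydroxylase gene, had regions of 18.9 and 15.7 kb with 3 and 1 IRF8 peaks. Regions of 16.7 kb near Zc3h12c, 16.0 kb in Dock5, 12.6 kb in Gpr141b, 11.9 kb near Itga8 and 10.7 kb at Ciita completed the 10 widest. All 10 held an IRF8 peak in cDC1, 1 held IRF8 in monocytes and none held CEBPA. Over all 196 cDC1-only regions above 4 kb these shares were 84.7%, 12.8% and 8.67%. The width of the 10 follows the called cDC1 signal and was one of the values that chose them.

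Among the 13 gene lists reported here, cDC1 genes had the highest share with a cDC1-only region. It was found at 12 of 20 (60.0%, against the 9.09% of all genes), with 34 regions in all, 19 of them with IRF8 in cDC1. That count is near the 57.1% of all cDC1-only regions with IRF8 in cDC1. Cd8a had 4, all bound by IRF8, and 1 region of a progenitor, in an IRF8KO LMPP library. The region over its start, chr6:71371960-71377277, was called as 5318 bases in library 1 and 2790 in library 2, and is the one whose promoter is printed above. Zbtb46, a transcription factor of classical dendritic cells, had 5 regions within its 122 kb span, 2 of them with IRF8. Wdfy4, needed for cross-presentation, had 5 (2 with IRF8). Snx22 had 1, of 3456 bases and IRF8-bound, and no region of any progenitor. Id2 had 1 of 8.90 kb at chr12:25092417-25101314, with 8811 and 8214 bases called and no IRF8 peak. Batf3 had 1 inside the gene (1865 bases, no IRF8 peak), and Flt3, the receptor for the growth factor of dendritic cells, had 1 (3428 bases, with IRF8).

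Irf8 itself had 2. The first, chr8:120708400-120712325, had its midpoint 26.0 kb upstream of the gene, was called as 3917 and 1533 bases, and held an IRF8 peak of cDC1. The second, chr8:120779254-120781201, had its midpoint 23.5 kb downstream of the gene's end, was called as 1948 bases in library 1 and at the minimum width in library 2, and held none. The d+56kb libraries, 6 of the 12 compared, come from animals without an Irf8 enhancer whose position was not used here.

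Xcr1 and Clec9a, the genes of 2 receptors that define cDC1, had no cDC1-only region, nor had Tlr3, Tlr11, Tlr12, Itgae, Rab7b and Naaa. Each did have a region in both cDC1 libraries that was also called in progenitor libraries. It was called in all 12 of them at Xcr1, Clec9a and Rab7b, and in 7 at Naaa. At Tlr3, Tlr12 and Itgae it was 3 or 4, and at Tlr11 it was 1. At Clec9a, 34.2 and 31.9 kb were called in the cDC1 libraries and 0.501 to 7.87 kb in the others, all in 1 merged region. At Xcr1 these were 14.6 and 14.4 kb against 1.34 to 5.75 kb. At Tlr11, 12.7 and 9.82 kb met a single call of 0.501 kb in an IRF8KO LMPP library. The cDC1-only regions are therefore not a list of all cDC1 acetylation. A call in 1 progenitor library was enough to remove a whole merged region, as at Tlr11. The part of width in such losses was not tested.

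**Figure D5:**
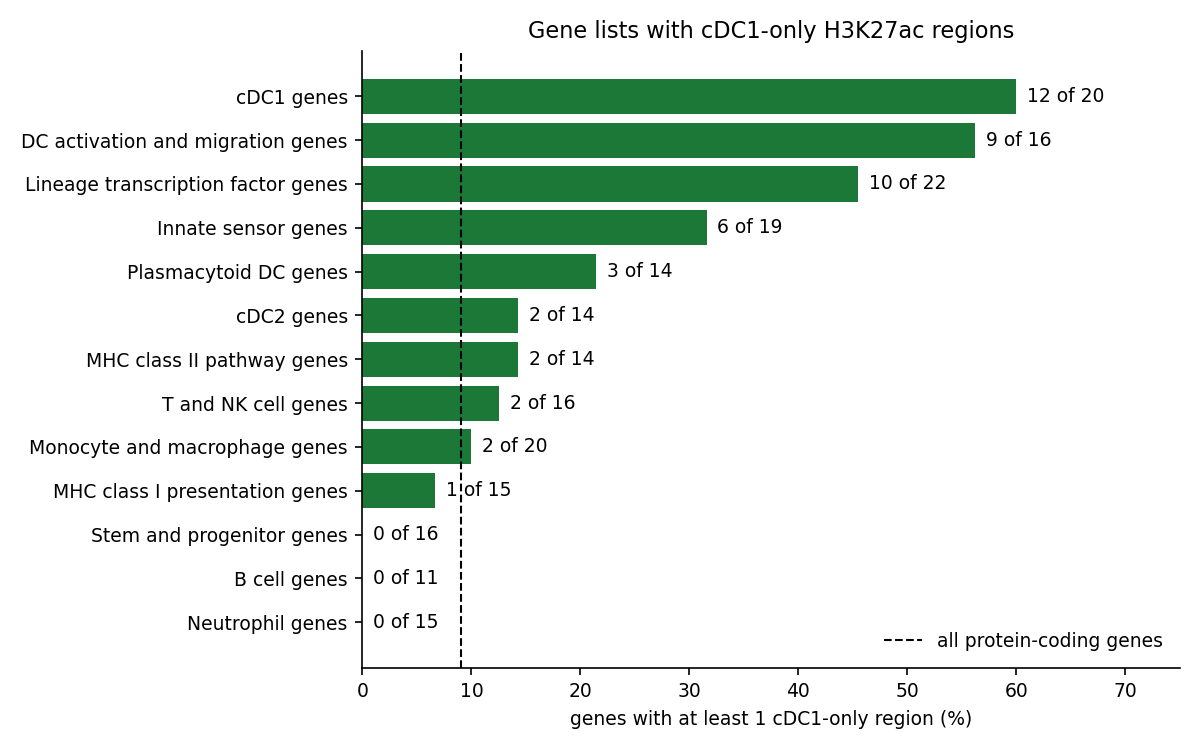
Share of the genes of each list (%) with at least 1 cDC1-only region, with counts at the bars; the dashed line is the 9.09% of all protein-coding genes. The cDC1 list reaches 60.0% and the activation list 56.3%, while the neutrophil, B cell and stem cell lists have none.

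Genes of dendritic cell activation and migration followed with 9 of 16 (56.3%) and 15 regions. IRF8 in cDC1 lay in 8 of the 15, also near the 57.1% of all cDC1-only regions. The genes included the costimulatory genes Cd40, Cd80, Cd86 and Cd83, the cytokine gene Il12b, the chemokine gene Ccl17 and the inhibitory ligand gene Cd274. Cd86 had 3 regions, the widest of 4781 bases (4781 and 3289 called) without IRF8 and one of 2922 bases with it. Il12b had 1 of 4548 bases over the gene's downstream end, with its midpoint 1.33 kb beyond that end, and it held an IRF8 peak. Ccl17 had 1 of 1942 bases, and it was among the 4 bound by IRF8 in monocytes alone. Socs2, a cytokine-signalling inhibitor gene, had 2, both bound by IRF8 in cDC1 and in monocytes.

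Lineage transcription factor genes had regions at 10 of 22 (45.5%), overlapping the cDC1 list in Irf8, Batf3, Id2 and Zbtb46. Nr4a3 and Bcl6 had 3 each, with IRF8 in 1 and 2. Innate sensor genes had them at 6 of 19 (31.6%). Tlr1 had 2, both with IRF8, and Ly75, the gene of the antigen uptake receptor DEC-205, had 3, of which the widest (6046 bases) held 2 IRF8 peaks. Of MHC class II pathway genes 2 of 14 had one: Ciita, the class II transactivator, had 3 regions (10687, 4163 and 2021 bases, the first 2 with IRF8), and Cd74 had 1. The other 12 had none, and in all 12 of 14 class II genes had some region in cDC1. Of MHC class I presentation genes Nlrc5 alone of 15 had one.

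Lists of other cell types stayed nearer the background. Plasmacytoid dendritic cell genes had a region at 3 of 14 (Tcf4, Runx2, Pacsin1), cDC2 genes at 2 of 14 (Notch2, Cd4), and monocyte and macrophage genes at 2 of 20 (Ccr2, Adgre1). T and NK cell genes had them at 2 of 16 (Cd3e, Cd4). Neutrophil genes (0 of 15), B cell genes (0 of 11) and stem and progenitor genes (0 of 16) had none. The lists differ in gene span, with medians from 3.21 kb for neutrophil genes to 38.4 kb for stem and progenitor genes, against 18.1 kb for cDC1 genes.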

How the data were processed

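H3K27ac, IRF8 and CEBPA ChIP-seq regions came from 22 libraries, 2 per group, named biological replicates by the labels, which do not say whether they come from separate mice. Per the submitters' processing notes, reads were mapped with Bowtie 1.1.2 to mm10 and regions were called with HOMER 4.9. The deposited files hold the start and end position of each region in bases. Per the file headers, calls needed 4-fold signal over the local region and, where an input was used, 4-fold over input. The IRF8 libraries were called without one. No score per region was used.

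Overlapping H3K27ac regions (at least 1 base) of 14 libraries were merged. A region was bound if it overlapped a peak found in both libraries of a factor by at least 1 base. Genes and promoters came from RefSeq tables, and regions were assigned to the protein-coding span that holds them or the nearest within 100 kb. Shares carry 95% Wilson intervals and no test was made across regions. Named genes are the 20 with the most regions, the 10 widest regions, the 10 genes with the most IRF8-bound regions, list genes with a region, and Irf8; cDC1 list genes without one, and genes of promoters with an IRF8 peak, were named after their values were seen. Members and lists were chosen with earlier results of these data known. Alternatives varied the merging gap, width minimum, overlap rule, windows, gene assignment and libraries. Some list genes, and 3 of the 16 lists, are not reported here. Merging and overlap were tested on simulated data. Python 3.11.15, pandas 2.3.3 and scipy 1.17.1 were used.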

Additional observations from a re-analysis of the deposited data

Results flagged for a closer look

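IRF8 gave opposite differences in the 2 cell types. In the 2 cDC1 IRF8 libraries the share of regions with a peak was 21.2 and 20.3 points higher in cDC1-only than in shared regions (65.2% against 44.0%, and 64.3% against 44.0%). In the 2 monocyte IRF8 libraries the difference was -6.72 and -7.62 points (6.57% against 13.3%, and 7.75% against 15.4%). All 4 libraries followed this split, and the difference between the cell types was not tested. Over regions of all widths the cDC1 direction rests on requiring both cDC1 H3K27ac libraries: with library 2 alone it turned to -14.2 points. Between 1 and 2 kb of width, chosen after seeing the data, it was 36.4 points with library 2 alone and 26.2 with library 1 alone. At that width and away from start sites these were 22.9 and 15.7 points. Away from start sites the shares by peaks of both libraries were 57.9% against 50.9% in cDC1 and 5.61% against 15.8% in monocytes. Between 1 and 2 kb of width the monocyte difference was -0.96 points, with overlapping intervals.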

How the results depend on the processing

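No paired analysis was possible because no result comes from a test. The count of 3031 cDC1-only regions stayed within 1.5 times under other merging gaps, wider calls, the shared part of both cDC1 libraries, or without any 1 progenitor library; over all libraries left out singly it ranged from 3059 to 9013, the high values being those without cDC1 library 1 (9013) or 2 (8264). Over single libraries left out (H3K27ac of cDC1 or the factor's own), the share with IRF8 in cDC1 ranged from 20.6% to 65.2% and its gap to shared regions from -14.2 to 21.2 points, reversing to -14.2 without cDC1 H3K27ac library 1. For IRF8 in monocytes these ranges were 1.84% to 7.75% and -8.65 to -6.72 points, and for CEBPA in monocytes 2.12% to 7.39% and -29.0 to -25.1 points. Counting peak centres gave 54.4% for IRF8 in cDC1 and a gap of 17.8 points, peaks within 500 bases 58.4% and 21.1 points, and merging over gaps of 1000 bases 59.1%, with a CEBPA gap of -26.8 points. Calls above the minimum width gave 64.4% and 27.9 points for IRF8 in cDC1, 7.73% and -3.70 points for IRF8 in monocytes, and 8.32% for CEBPA.

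The settings of fixed width, away from start sites, of span ends, and without both IRF8KO LMPP libraries (3136 cDC1-only regions) were chosen after seeing the data. Regions between 1 and 2 kb wide gave 54.8% and 33.6 points for IRF8 in cDC1, -0.96 points for IRF8 in monocytes, and 4.32% and -10.2 points for CEBPA. At that width without cDC1 H3K27ac library 1, IRF8 in cDC1 gave 60.5% and 36.4 points, IRF8 in monocytes 4.32% and -2.08 points, and CEBPA -10.3 points; without library 2 these were 48.8% and 26.2 points, -1.47 points and -10.7 points. Away from start sites the values were 57.9% and 7.0 points for IRF8 in cDC1, -10.2 points for IRF8 in monocytes and -28.4 points for CEBPA. With that width as well they were 55.5% (gap 19.8), -4.92 points, and 4.48% and -13.0 points. There, without cDC1 H3K27ac library 1, IRF8 in cDC1 gave 61.4% and 22.9 points, IRF8 in monocytes 4.57%, and CEBPA -13.5 points; without library 2 these were 49.4% and 15.7 points, -4.65 points and -13.4 points. The cause of these changes was not tested. A wider start-site window gave 7.01% of regions and either end of a gene span 8.84%. By nearest start site 7.75% of genes had a region and 9 of the leading 20 were kept. Median width as called in cDC1 library 2 was 846 bases. Depth and enrichment differ between libraries, so a region missing from a shallow library may lie below its threshold.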

Other observations

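Some neighbourhoods held many cDC1-only regions; they were picked after their counts were seen. The 1 Mb from 29 to 30 Mb of chromosome 6, around Ahcyl2, Strip2 and Tspan33, held 13, of which 10 had an IRF8 peak in cDC1. The 1 Mb from 70 to 71 Mb of chromosome 11, which holds Scimp (an adaptor of MHC class II signalling) and Arrb2 among others, also held 13, with IRF8 in 8. At 35 to 36 Mb of chromosome 12, 12 regions lay around Ahr, the aryl hydrocarbon receptor gene, and Snx13, and 9 had IRF8. On chromosome 6, 11 regions lay at 71 to 72 Mb around Cd8a and Cd8b1 (8 with IRF8), and 11 at 129 to 130 Mb in the C-type lectin and killer receptor genes Clec12a, Clec1b, Clec2d and Klrk1 (7 with IRF8).

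The other 7 of the 12 windows listed, taken by their number of regions and then by the number with IRF8, varied in IRF8. The window at 48 to 49 Mb of chromosome 4, around Nr4a3, held 11 (7 with IRF8). On chromosome 9, 11 lay at 99 to 100 Mb, around Mras and Pik3cb (6 with IRF8), 11 at 45 to 46 Mb, around Il10ra (5), and 11 at 47 to 48 Mb, in Cadm1 (5). Of 3 windows with 10 regions, that at 34 to 35 Mb of chromosome 13 held IRF8 in 7, that of Rbpj at 53 to 54 Mb of chromosome 5 in 3, and that of Etv6 at 134 to 135 Mb of chromosome 6 in 2. Over all cDC1-only regions the share was 57.1%.

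Per 100 regions called in both cDC1 libraries, the number that were cDC1-only ran from 14.5 on chromosome 11 to 22.8 on chromosome 6.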
